A study of Mus musculus with 14 samples.

Results

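The epidermal growth factor (EGF) family signals through the ERBB receptor tyrosine kinases. Each ligand is made as a precursor in the cell membrane, and for most of them a metalloprotease cuts the soluble factor free. Egf, Tgfa and Areg bind EGFR, Hbegf, Btc and Ereg bind both EGFR and ERBB4, and Nrg1 binds ERBB3 and ERBB4. ERBB2 binds no ligand of its own and works as a partner of the other receptors, while ERBB3 has very weak kinase activity and signals through its partners. In the kidney, the EGF precursor is made mainly by the thick ascending limb and the distal convoluted tubule and is shed into urine, and EGFR signaling has been studied widely in tubular repair after injury.

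The expression of 10 of these genes was followed in mouse kidney after renal ischemia/reperfusion injury (IRI). The genes were taken by symbol, by a rule that sets no threshold on their values, from the 24411 genes in the count tables, and comprised 7 ligands (Egf, Tgfa, Hbegf, Areg, Ereg, Btc and Nrg1) and 3 receptors (Egfr, Erbb2 and Erbb3). These genes, and the gene lists set beside them below, were chosen with earlier results of these data known. Counts of calls in them are therefore descriptions and not independent tests. All 10 were among the 14300 genes that passed the filter on low counts. The samples were whole kidneys of Male C57/B6 mice at 8 weeks of age, with 4 libraries at day 0, 5 at day 1 and 5 at day 3. Whether the day 0 kidneys came from animals with a sham operation is not given in the sources used here, nor is it stated that each library came from a separate animal. The p-values therefore measure the spread between these libraries, which may in part be technical. In whole tissue, fewer cells of a type and less RNA per cell cannot be told apart.

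The libraries held 12485579 to 20476979 reads on genes. The names of the deposited tables carry a library number. It has 3 digits for 2 libraries of day 1 (replicates 1 and 2) and 3 libraries of day 3 (replicates 1 to 3), and a single digit for the rest, day 0 included. What this format marks is not given in the sources used here. Because the formats stood apart for several of the genes below, values are given by format within day 1 and day 3. No 3-digit library exists at day 0, so a contrast of 3-digit libraries with day 0 mixes the day with the format, and these cannot be told apart. Levels are in CPM, which sets the reads of a gene against the TMM-scaled number of reads on all genes of its library. Changes are fitted log2 fold changes with their standard error (SE) from edgeR's quasi-likelihood test, and a gene was called when its Benjamini-Hochberg adjusted p over all 14300 genes was below 0.05.

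Of the 10 genes, 6 were called at day 1 against day 0, beside 42.1% of all genes tested. Hbegf, Areg and Nrg1 rose (3 genes, beside 23.3% of all genes called higher), and Egf, Btc and Erbb2 fell (3 genes, beside 18.7% called lower). At day 3 against day 0, 4 genes were called, beside 33.3% of all genes: Areg and Nrg1 were higher (2 genes, beside 19.5%) and Egf and Btc lower (2 genes, beside 13.8%). From day 1 to day 3, 3 genes were called, beside 15.9% of all genes. Of these, 1 was higher (Erbb3, beside 8.52%) and 2 were lower (Hbegf and Nrg1, beside 7.39%). Both contrasts with day 0 use the same 4 control libraries. With 10 genes these counts describe the family and are not a test of it.

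**Figure D1:**
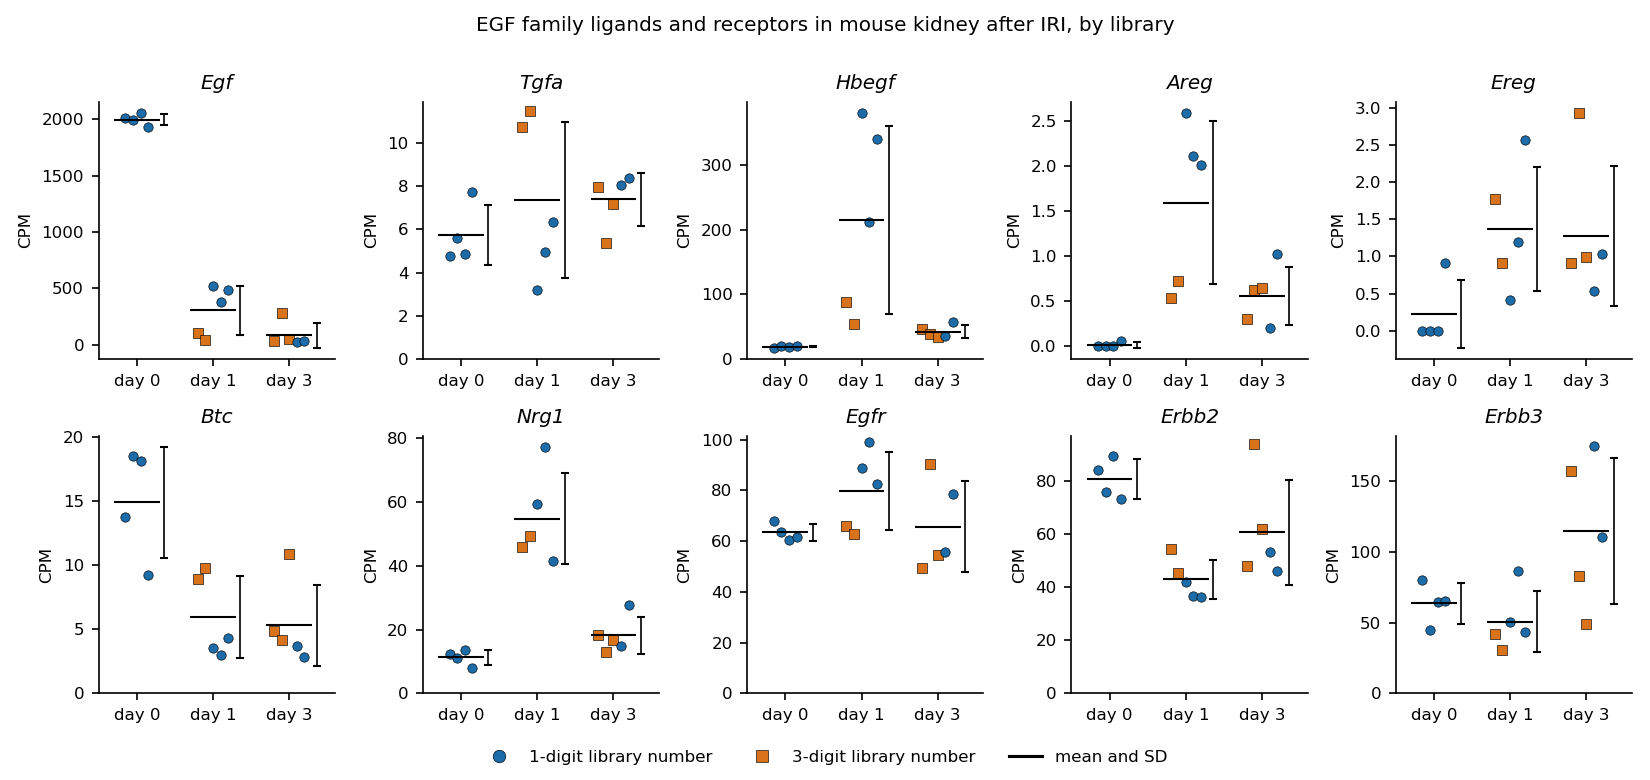
Level of each of the 10 genes (CPM, linear axis) in every library at day 0, day 1 and day 3, with circles for 1-digit and squares for 3-digit library numbers, and the mean and SD of each day. Egf sat between 1931 and 2052 CPM at day 0 and below 517 CPM in every later library, while Hbegf and Nrg1 lay above the day 0 range in every day 1 library.

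Egf encodes the precursor that gave the family its name and was by far its most abundant transcript at day 0. Its level there was 2006, 1989, 2052 and 1931 CPM in replicates 1 to 4. At day 1 it was 104 and 46.1 CPM in the 3-digit replicates 1 and 2, and 517, 381 and 482 CPM in the 1-digit replicates 3, 4 and 5. At day 3 it was 36.2, 282 and 54.5 CPM in the 3-digit replicates 1 to 3, and 24.0 and 31.1 CPM in the 1-digit replicates 4 and 5. No library of day 1 or day 3 came near the day 0 range, and within day 1 the formats did not overlap. Replicate 2 of day 3 stood far above the other 4 libraries of its day.

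Egf fell 6.52-fold at day 1 (log2 change −2.70 ± 0.76 SE, adjusted p = 0.0117) and 23.3-fold at day 3 (−4.54 ± 0.82 SE, adjusted p = 0.00121). By format, the fall at day 1 was 4.34-fold in 1-digit and 26.6-fold in 3-digit libraries, and at day 3 it was 72.3-fold in 1-digit and 16.1-fold in 3-digit libraries. All of these were called (adjusted p of at most 0.00538). The fall at day 3 without replicate 2 of that day was −5.77 on the log2 scale. The step from day 1 to day 3 differed by format. Among 1-digit libraries Egf fell further, by 4.06 on the log2 scale (SE 0.75, adjusted p = 0.0018). Among 3-digit libraries the fitted change was 0.73 ± 0.64 SE (adjusted p = 0.475). In this format, replicate 2 of day 3 (282 CPM) alone lay above both day 1 values (104 and 46.1 CPM). Replicates 1 and 3 had 36.2 and 54.5 CPM, so the upward direction rested on replicate 2. In the pooled fit the change was −1.84 ± 0.72 SE with adjusted p = 0.094, and it was called without replicate 2 of day 3 (−3.07, adjusted p = 0.0067) and without replicate 2 of day 1 (−2.12, adjusted p = 0.0352). The gene lies at chr3:129677565-129755316 on the minus strand of GRCm38.

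Other genes of the segments that make EGF were also measured. A list of 8 genes of the thick limb and distal convoluted tubule summed to 6743 to 9669 CPM at day 0, 3405 to 6036 CPM at day 1 and 2261 to 3572 CPM at day 3, and all 8 had reads in every day. At day 1, 4 of the 8 were called lower and none higher, beside 18.7% and 23.3% of all genes, with a median log2 change of −0.48 against −2.70 for Egf. At day 3, 6 were called lower and none higher, beside 13.8% and 19.5%, with a median of −1.52 against −4.54 for Egf. By format at day 1, 3 were called lower and 1 higher in 1-digit libraries, beside 29.6% and 28.9%, and 6 lower and none higher in 3-digit libraries, beside 19% and 22.6%. At day 3 the counts were 7 lower and 1 higher in 1-digit libraries, beside 25.1% and 28.6%, and 5 lower and none higher in 3-digit libraries, beside 13.3% and 19.1%. The fitted change was upward in 1 of the 8 at day 1 and in 2 at day 3. The median of all genes tested was 0.0073 at day 1 and 0.054 at day 3. For every 100 CPM of the list, Egf stood at 21.0 to 28.6 CPM at day 0. At day 1 this ratio was 7.77 to 13.2 in 1-digit and 1.35 to 2.28 in 3-digit libraries, and at day 3 it was 1.03 to 1.52 in 4 libraries and 9.74 in replicate 2. That replicate also had the lowest summed level of 8 tubular injury genes at day 3, at 7122 CPM against 21879 to 44975 CPM in the other libraries of that day, and the highest sum of 10 proximal tubule genes, at 13179 CPM. The part of these list levels in the Egf result was not tested.

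**Figure D2:**
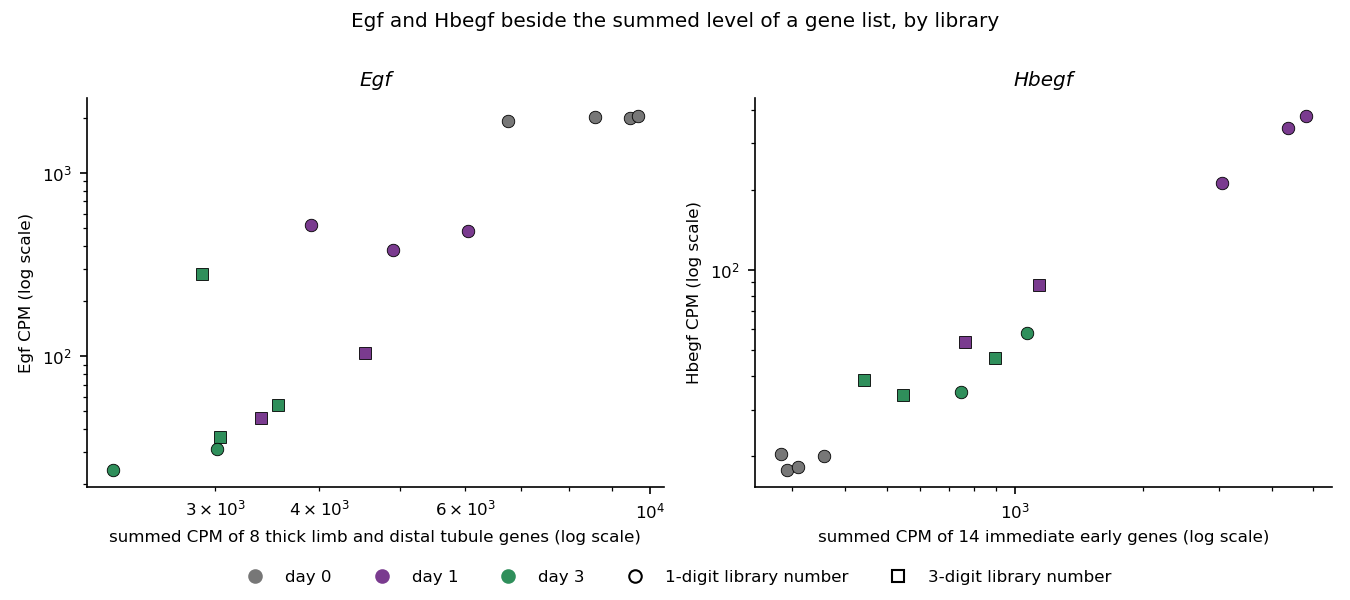
Egf (left) and Hbegf (right) in each library, in CPM, against the summed CPM of 8 thick limb and distal tubule genes and of 14 immediate early genes, on log axes, colored by day, with circles for 1-digit and squares for 3-digit library numbers. Egf spanned 24.0 to 2052 CPM while its list spanned 2261 to 9669 CPM, and Hbegf went up and down with the immediate early sum.

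Hbegf encodes heparin-binding EGF-like growth factor, an early response gene in many epithelia. It measured 17.8, 20.4, 18.3 and 20.02 CPM in the 4 day 0 libraries. At day 1 it reached 380, 213 and 341 CPM in the 1-digit replicates 3 to 5, and 87.7 and 53.8 CPM in the 3-digit replicates 1 and 2. At day 3 its levels were 47.0, 38.8 and 34.1 CPM in 3-digit replicates 1 to 3 and 35.0 and 58.0 CPM in 1-digit replicates 4 and 5. Every library after injury lay above the day 0 range, and the day 1 formats did not overlap each other. The gene lies at chr18:36504927-36515805 on the minus strand.

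At day 1 Hbegf was 11.2-fold higher than at day 0 (log2 change 3.49 ± 0.49 SE, adjusted p = 0.000159). The rise was 16.3-fold in 1-digit and 3.69-fold in 3-digit libraries, and both were called (adjusted p = 2.7e-07 and 0.000114). Hbegf then fell 5.05-fold from day 1 to day 3 (−2.34 ± 0.42 SE, adjusted p = 0.0045). Among 1-digit libraries this fall was 6.70-fold (−2.74 ± 0.30 SE, adjusted p = 0.000105), whereas among 3-digit libraries the fitted change was −0.82 ± 0.27 SE and not called (adjusted p = 0.0565), although the days did not overlap there. A fit of these 3-digit libraries and day 0 alone gave −0.83 and called it (adjusted p = 0.0248 for Hbegf, day 3 against day 1). At day 3 its fitted change against day 0 was 1.15 ± 0.45 SE with adjusted p = 0.0594, not called although the libraries did not overlap. It was called in either format alone, with 1.28 ± 0.25 SE (adjusted p = 0.00109) for 1-digit and 1.06 ± 0.23 SE (adjusted p = 0.00364) for 3-digit libraries. The pooled change was also called with total counts without TMM (1.29, adjusted p = 0.0268), with DESeq2 (1.13, adjusted p = 0.0291), when only the 2 days compared were fitted (adjusted p = 0.0012) and with number format as a term (1.93, adjusted p = 0.00234). In all, it was called in 6 of 11 alternative settings and in only 3 of 14 leave-one-out fits. The highest adjusted p was 0.109 among the settings and 0.124 among the leave-one-out fits.

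The level of Hbegf went with the immediate early genes, the transcription factors and regulators that cells induce within minutes to hours of a stimulus. All 14 genes of this list were called higher at day 1 (median log2 change 3.51), beside 23.3% of all genes, and 9 of the 14 at day 3, beside 19.5%. By format at day 1, 14 were called higher in 1-digit libraries, beside 28.9%, and 10 in 3-digit libraries, beside 22.6%. Between day 1 and day 3, 12 of the 14 were called lower, beside 7.39%. Within 1-digit libraries 12 were lower, beside 15.5%, and within 3-digit libraries none was called (median −0.80), beside 6.41% of all genes called lower. Their summed level was 282 to 356 CPM at day 0, 3048 to 4801 CPM in 1-digit and 761 to 1139 CPM in 3-digit libraries of day 1, and 442 to 1065 CPM at day 3. For every 100 CPM of this sum Hbegf stood at 4.68 to 8.78 CPM over all 14 libraries, and its day 1 formats overlapped on that scale (6.98 to 7.92 in 1-digit and 7.07 to 7.70 in 3-digit libraries). The 3 genes whose centered log2 CPM came nearest to that of Hbegf over the 14 libraries were Rnd3, Plk3 and Ifrd1, with root mean square differences of 0.29, 0.32 and 0.35. The list was chosen with earlier results of these data known, so its counts are a description. The likenesses and ratios are also a description, taken over libraries that differ in depth and in the levels of whole gene lists.

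The ligands Areg, Ereg and Btc are neighbors, together with Epgn, which encodes the ligand epigen. The 4 genes span 375.5 kb of chromosome 5, with 39.4 kb between Epgn and Ereg, 46.0 kb between Ereg and Areg and 208.8 kb between Areg and Btc, and GENCODE places no protein-coding gene in these gaps. Areg (chr5:91139599-91148432, plus strand) and Ereg (chr5:91074622-91093646, plus strand) encode amphiregulin and epiregulin, and Btc (chr5:91357261-91402994, minus strand) encodes betacellulin. In these kidneys Areg was called higher and Btc lower at both days, Ereg had higher fitted levels that were not called, and Epgn did not pass the filter, with 0 reads in all 4 day 0 libraries and at most 4 reads in any later library.

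Areg was nearly absent at day 0, with 0 reads in 3 libraries and 1 read in replicate 4. Up to 3 reads, or 0.172 to 0.189 CPM in these libraries, are within what a count of 0 allows. At day 1 it had 38, 37 and 25 reads in the 1-digit replicates 3 to 5 (2.59, 2.11 and 2.01 CPM) and 10 and 16 reads in the 3-digit replicates 1 and 2 (0.539 and 0.727 CPM). At day 3 it had 6, 11 and 13 reads in 3-digit replicates 1 to 3 and 3 and 14 reads in 1-digit replicates 4 and 5. All later libraries lay above the day 0 libraries, although replicate 4 of day 3 had no more reads than the limit for a count of 0.

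Over all libraries of a day, Areg had 126 reads at day 1 against 1 read at day 0. The ratio of pooled levels was 98.7, with an exact 95% interval of 17.4 to 3930 that covers counting error only. At day 3 there were 47 reads and the ratio was 36.4 (6.23 to 1469). The edgeR test called both days, with log2 changes of 6.15 ± 0.90 SE (adjusted p = 0.000214) and 4.65 ± 0.95 SE (adjusted p = 0.0025), whose size depends on the prior count because day 0 had a single read. The change of Areg between these days was called among 1-digit libraries (−1.87 ± 0.60 SE, adjusted p = 0.0308). It was not called with total counts without TMM (−1.63, adjusted p = 0.0574) or without replicate 3 or 4 of day 1 (−1.75 and −1.91, adjusted p = 0.0706 and 0.0526). Without replicate 4 of day 3, which leaves 1 library of that day, the change was −1.12 and its call was lost. Over the leave-one-out fits the change ran from −3.44 to −1.12. Among 3-digit libraries it was −0.28 ± 0.59 SE (adjusted p = 0.789). The 3 genes nearest to Areg over the libraries were Epha2, Dusp8 and Rap2b, with root mean square differences of 0.39 to 0.49. Even at day 1 Areg was a rare transcript, at 0.208% to 0.422% of the reads on the 7 ligand genes.

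The bases upstream of Areg and Egf are shown because these genes had the largest fitted rise and the largest fitted fall of the family. Each sequence holds the 250 bases before the RefSeq start, 5′ to 3′ on the strand of the gene, in GRCm38.p6. Capitals mark matches, on either strand, to 4 motifs: the TATA box (TATAAA), the cyclic AMP response element (TGACGTCA), the AP-1 site (TGANTCA) and the GC box (GGGCGG).
Areg, chr5:91139349-91139598, plus strand: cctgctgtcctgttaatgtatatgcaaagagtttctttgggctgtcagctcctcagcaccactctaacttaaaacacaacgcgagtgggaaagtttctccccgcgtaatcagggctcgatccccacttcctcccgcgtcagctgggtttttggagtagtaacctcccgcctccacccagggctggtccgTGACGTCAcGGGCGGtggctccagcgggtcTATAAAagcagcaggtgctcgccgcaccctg
Egf, chr3:129755323-129755572, minus strand: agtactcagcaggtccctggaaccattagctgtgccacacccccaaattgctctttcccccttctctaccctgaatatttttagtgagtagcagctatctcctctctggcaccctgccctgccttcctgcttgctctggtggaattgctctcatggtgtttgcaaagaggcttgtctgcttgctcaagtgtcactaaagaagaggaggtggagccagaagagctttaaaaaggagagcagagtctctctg

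The Areg window held the cyclic AMP response element from 61 bases before the start, the GC box from 52 bases and the TATA box from 31 bases, with no overlap between them, and no AP-1 site. The Egf window held none of the 4 strings. Among 32536 distinct windows of the same length in the promoter table, 1.56% held the cyclic AMP response element, 33.0% the GC box, 12.3% the TATA box and 6.73% the AP-1 site. The table had entries for 6 of the 10 genes and none for Hbegf, Ereg, Nrg1 and Erbb3. The windows of Tgfa and Egfr held the GC box, and those of Btc and Erbb2 held none of the 4 strings. A match is a string of letters and not a site shown to be used in these kidneys.

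Ereg was low throughout. It had 0 reads in replicates 1 to 3 of day 0 and 15 reads in replicate 4. At day 1 it had 6 to 33 reads and at day 3 it had 8 to 52 reads, the highest in replicate 2 of day 3. The libraries of day 0 and the later days overlapped through replicate 4 of day 0 alone. The fitted log2 changes were 2.56 ± 1.00 SE at day 1 (adjusted p = 0.0514) and 2.47 ± 0.99 SE at day 3 (adjusted p = 0.0685), and neither was called. DESeq2 called both (adjusted p = 0.0219 and 0.0357), and with unstranded counts edgeR called day 1 (adjusted p = 0.0483). Most fits called neither. Of 10 alternative settings, 2 called day 1 and 1 called day 3, with adjusted p of up to 0.111 and 0.253. Of 14 leave-one-out fits, 4 called day 1 and 1 called day 3.

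Without replicate 4 of day 0, both were called, with adjusted p = 0.00171 at day 1 and 0.00253 at day 3. The other day 0 libraries all have 0 reads, so the fitted log2 changes of 7.55 and 7.46 then depend on the prior count and are no measure of size. In that replicate 8 urothelium genes summed to 59.4 CPM, against 5.53 to 13.5 CPM in the other day 0 libraries. The sum was 22.4 and 124 CPM in 3-digit and 5.32 to 9.09 CPM in 1-digit libraries of day 1, and 54.4 CPM in replicate 4 of day 3 against 2.70 to 15.05 CPM in the other 4. All 8 genes had reads in every day. The part of urothelium in the day 0 reads was not tested.

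Btc fell where Areg rose. It measured 13.7, 18.5, 18.1 and 9.25 CPM at day 0. At day 1 it was 8.94 and 9.77 CPM in the 3-digit replicates and 3.54, 2.97 and 4.34 CPM in the 1-digit replicates. At day 3 it was 2.86 to 4.89 CPM in 4 libraries and 10.8 CPM in replicate 3. The lowest day 0 library overlapped the highest later libraries, which had 3-digit numbers.

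Btc fell 2.50-fold at day 1 (log2 change −1.32 ± 0.43 SE, adjusted p = 0.0225) and 2.80-fold at day 3 (−1.48 ± 0.43 SE, adjusted p = 0.0168). At day 1 the call was lost when any of replicates 2 and 3 of day 0 or 4 and 5 of day 1 was left out (−1.20, −1.22, −1.15 and −1.23, with adjusted p of 0.0623, 0.0610, 0.0526 and 0.0529). Against day 0, 1-digit libraries of day 1 had a change of −2.04 ± 0.35 SE (adjusted p = 0.000278) and 3-digit libraries −0.67 ± 0.37 SE (adjusted p = 0.16). At day 3 the change was −2.18 ± 0.41 SE in 1-digit (adjusted p = 0.000832) and −1.16 ± 0.33 SE in 3-digit libraries (adjusted p = 0.016). The 3-digit call was lost without replicate 1 of day 3 (−0.98, adjusted p = 0.0679).

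Nrg1 encodes neuregulin 1, the ligand of ERBB3 and ERBB4, and lies at chr8:31814551-32884029 on the minus strand. Its levels were 12.3, 11.2, 13.6 and 8.04 CPM at day 0. They reached 45.9, 49.3, 59.4, 77.2 and 41.5 CPM in replicates 1 to 5 of day 1, and were 18.2, 12.9, 16.9, 14.9 and 27.8 CPM in those of day 3. The day 1 libraries stood apart from both other days, and the formats overlapped within each day.

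Nrg1 rose 4.85-fold at day 1 (log2 change 2.28 ± 0.25 SE, adjusted p = 3.1e-05) and then fell 3.02-fold to day 3 (−1.59 ± 0.23 SE, adjusted p = 0.00148). The fall from day 1 to day 3 was called within both formats, at −1.48 ± 0.31 SE among 1-digit and −1.57 ± 0.29 SE among 3-digit libraries (adjusted p = 0.00348 and 0.00513). At day 3 it was 1.61-fold above day 0 (0.69 ± 0.24 SE, adjusted p = 0.0414), with 0.92 ± 0.28 SE in 1-digit (adjusted p = 0.0133) and 0.51 ± 0.25 SE in 3-digit libraries, where it was not called (adjusted p = 0.138). Without replicate 5 of day 3, which leaves 1 library in the 1-digit arm, the 1-digit change was 0.43 and its call was lost. The pooled day 3 call was lost when any one of 8 of the 14 libraries was left out (replicates 1 to 4 of day 0, 1 of day 1, and 1, 3 and 5 of day 3), with log2 changes of 0.49 to 0.79. It was also lost with the replicate number as a block (adjusted p = 0.115), without the filter on low counts (0.0611), with only the 2 days compared (0.0507) and with only 3-digit libraries (0.0599). The genes nearest to Nrg1 over the libraries were Txnrd1, Ptp4a1 and Slc20a1, with root mean square differences of 0.33 to 0.36.

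Tgfa, which encodes transforming growth factor alpha (chr6:86195223-86275719, plus strand), showed no called change between days. It ranged from 4.77 to 7.74 CPM at day 0, from 3.20 to 11.5 CPM at day 1 and from 5.35 to 8.37 CPM at day 3, and the ranges overlapped. The fitted log2 change was 0.36 ± 0.33 SE at both days (adjusted p = 0.39 and 0.411). Within day 1, however, the 3-digit libraries had 10.7 and 11.5 CPM and the 1-digit libraries 3.20, 4.97 and 6.35 CPM. Against day 0 the 3-digit libraries were called higher (0.95 ± 0.27 SE, adjusted p = 0.0127), a call lost when either of these libraries was left out (adjusted p = 0.0611 and 0.0766).

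The makeup of the ligand reads differed between day 0 and the later days. Egf took 97.3% to 97.7% of the reads on the 7 ligand genes at day 0, with Hbegf at 0.868% to 1.01% and Nrg1 at 0.407% to 0.645%. At day 1 Egf took 53.5% to 55.9% in 1-digit and 26.8% and 40.0% in 3-digit libraries, and Hbegf took 31.2% to 39.4% over all 5. At day 3 Egf took 23.9% to 43.5% in 4 libraries and 81.3% in replicate 2, while Hbegf took 27.3% to 44.5% in the same 4 and 11.2% in replicate 2. Nrg1 took 4.72% to 11.3% in 1-digit and 17.7% and 28.7% in 3-digit libraries of day 1. At day 3 its share was 13.5% to 21.4% in 4 libraries and 3.72% in replicate 2. These shares count reads and are not corrected for transcript length. A share can also rise because Egf falls, without a change of the gene itself. The median share of Tgfa, which had no called change between days, was 0.253% at day 0 and 6.43% at day 3.

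**Figure D3:**
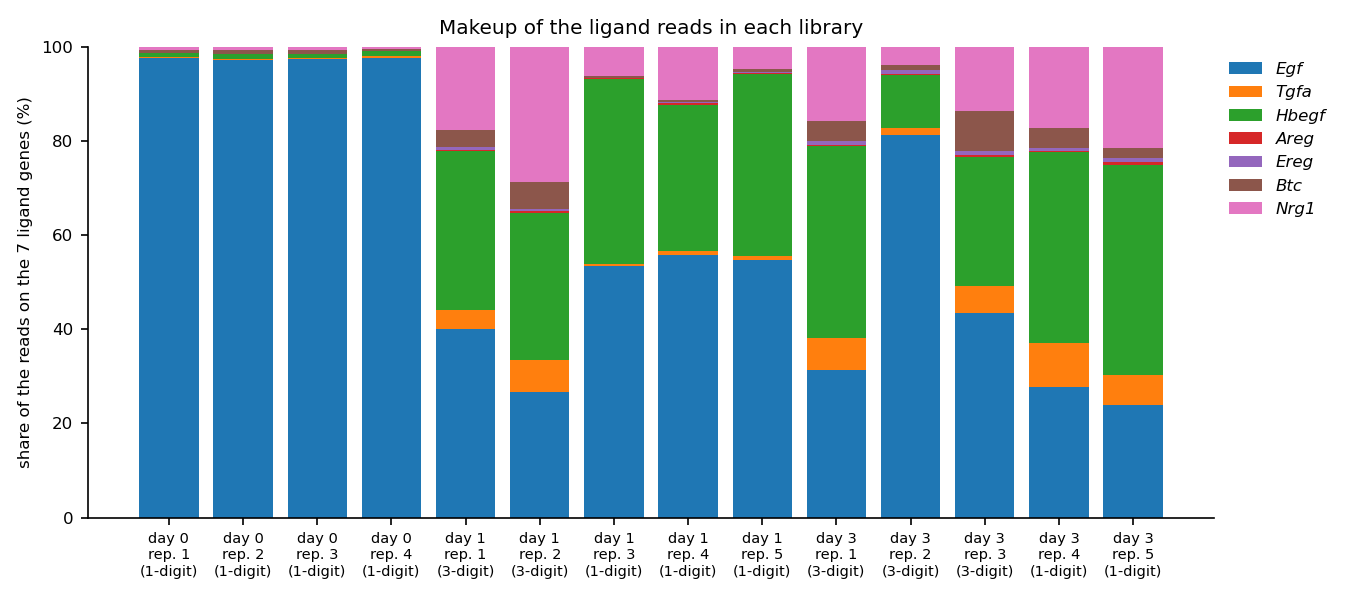
Share of the reads on the 7 ligand genes taken by each gene (percent, stacked) in each of the 14 libraries, labelled by day, replicate and number format. Egf fills at least 97.3% of every day 0 bar. Hbegf fills 27.3% to 44.5% of each later bar except that of replicate 2 of day 3, and Nrg1 fills 4.72% to 28.7% of the day 1 bars.

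Egfr, the receptor shared by most of these ligands (chr11:16752203-16918158, plus strand), changed little. It ranged from 60.5 to 68.0 CPM at day 0, from 62.9 to 99.0 CPM at day 1 and from 49.4 to 90.4 CPM at day 3, and its fitted log2 changes of 0.33 ± 0.19 SE and 0.05 ± 0.19 SE were not called (adjusted p = 0.166 and 0.85). The 1-digit libraries of day 1 had 88.7, 99.0 and 82.4 CPM, all above day 0. Their change was called (0.50 ± 0.18 SE, adjusted p = 0.0304), although this call was lost when any one of replicates 2, 3 and 4 of day 0 or 3 and 4 of day 1 was left out (0.43 to 0.57 over all leave-one-out fits). With total counts without TMM it was 0.40 and not called (adjusted p = 0.0894). The 3-digit libraries had 66.1 and 62.9 CPM.

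Erbb2, the partner receptor without a ligand (chr11:98412470-98437716, plus strand), fell at day 1. It measured 84.4, 76.0, 89.6 and 73.2 CPM at day 0 and 54.4, 45.6, 42.1, 36.8 and 36.2 CPM in replicates 1 to 5 of day 1, with no overlap. The fall was 1.88-fold (log2 change −0.91 ± 0.20 SE, adjusted p = 0.00263), and by format it was 2.11-fold in 1-digit and 1.62-fold in 3-digit libraries (adjusted p = 0.000367 and 0.02004). The 3-digit call was lost without replicate 1 or 2 of day 1, each of which leaves 1 library in that arm. The log2 change was then −0.86 and −0.57. At day 3 it was 46.3 to 61.9 CPM in 4 libraries and 94.3 CPM in replicate 2, and the change of −0.41 ± 0.20 SE was not called (adjusted p = 0.118). Without replicate 2 it was −0.62 and called (adjusted p = 0.0051).

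Erbb3, the receptor of Nrg1 (chr10:128567523-128589652, minus strand), was called from day 1 to day 3. It measured 80.1, 44.5, 64.6 and 65.2 CPM at day 0, 41.8, 30.7, 50.4, 86.6 and 43.4 CPM at day 1, and 157, 82.9, 49.0, 175 and 110 CPM at day 3. It rose 2.27-fold from day 1 to day 3 (log2 change 1.18 ± 0.33 SE, adjusted p = 0.0282), although replicates 2 and 3 of day 3 lay inside the range of day 1. The rise was called within each format, at 1.24 ± 0.41 SE among 1-digit and 1.41 ± 0.44 SE among 3-digit libraries (adjusted p = 0.0351 and 0.049), and these calls were lost in 3 and 10 of the 14 leave-one-out fits. The pooled call was lost when any one of replicates 1, 3 and 5 of day 1 or 1 and 4 of day 3 was left out (0.98 to 1.18, adjusted p = 0.0513 to 0.0707). It was also lost when only the 2 days compared were fitted (1.18, adjusted p = 0.0718) and when only 3-digit libraries of both days were fitted with day 0 (1.41, adjusted p = 0.0545). Against day 0 neither day was called (−0.33 ± 0.35 SE and 0.85 ± 0.35 SE).

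**Figure D4:**
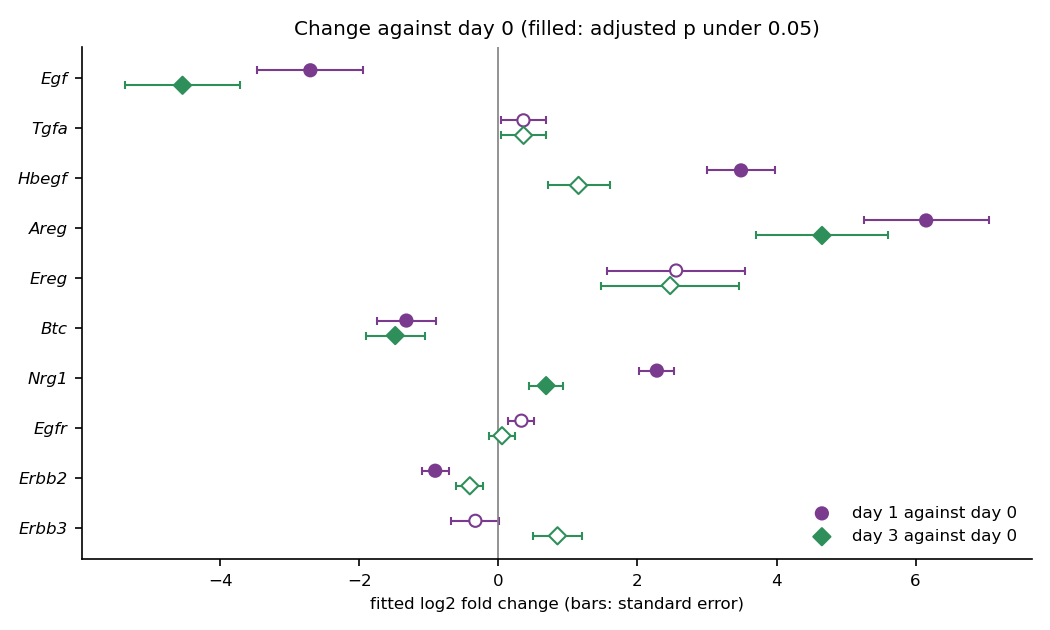
Fitted log2 fold change (x axis) of each gene at day 1 (circles) and day 3 (diamonds) against day 0, with bars of 1 standard error and filled symbols for adjusted p under 0.05. Areg lies furthest to the right and Egf furthest to the left, and the 3 receptors lie between −0.91 and 0.85.

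Per kilobase of merged exons, which allows levels of different genes to be set side by side, the order of the family changed. At day 0 Egf stood first at 177 ± 4.42 CPM per kb (SD, n = 4), followed by Erbb2 at 15.5, Erbb3 at 10.6, Egfr at 5.60, Hbegf at 3.96, Btc at 3.29, Nrg1 at 1.09, Tgfa at 0.885, Ereg at 0.0549 and Areg at 0.0124. Among these neighbors the ranges of Hbegf and Btc, of Nrg1 and Tgfa, and of Ereg and Areg overlapped. At day 1 Hbegf stood first at 44.5 ± 30.2 CPM per kb (SD, n = 5), Egf followed at 27.1 ± 19.3, Areg was the seventh at 1.31 and Ereg the last at 0.333. In an order by format, chosen after the data were seen, the places of Egf and Areg at day 1 held in 1-digit libraries (33.8 to 45.8 and 1.66 to 2.13 CPM per kb). In 3-digit libraries Hbegf was still first at 11.1 and 18.1, but Egf, at 4.09 and 9.19, lay below Erbb2 at 8.74 and 10.4, and Areg, at 0.443 and 0.598, below Btc and Tgfa. Of the day 1 neighbors over all 5 libraries, only Nrg1 (5.28) and Areg did not overlap. At day 3 Erbb3 stood first at 19.1 ± 8.59, ahead of Erbb2 at 11.7, Hbegf at 8.81 and Egf at 7.58 ± 9.77, and only Egfr (5.81) and Nrg1 (1.75) among the neighbors did not overlap. The place of Egf at day 3 rested on replicate 2, without which (a check chosen after seeing the data) its mean was 3.23 ± 1.15 CPM per kb (SD, n = 4), below Egfr at 5.26. The lengths come from GENCODE M21 and assume that all annotated exons are used.

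Within day 1 the 2 libraries with 3-digit numbers differed from the 3 with 1-digit numbers for 5 of the 10 genes, beside 35% of all genes. Tgfa and Btc were higher (2 genes, beside 18.6%) and Egf, Hbegf and Areg lower (3 genes, beside 16.4%) in the 3-digit libraries. The log2 differences were −2.62 ± 0.69 SE for Egf (adjusted p = 0.0114), −2.14 ± 0.29 SE for Hbegf (adjusted p = 0.000361), −1.81 ± 0.58 SE for Areg (adjusted p = 0.0275), 1.20 ± 0.29 SE for Tgfa (adjusted p = 0.00714) and 1.38 ± 0.39 SE for Btc (adjusted p = 0.0158). Without replicate 2 of day 1 the calls of Egf, Areg, Tgfa and Btc were lost, at differences of −2.15, −2.04, 1.15 and 1.31. Calls over all genes were also fewest in that leave-one-out fit. The difference in Egf ran from −3.33 to −2.15 over such fits. Over the leave-one-out fits the difference in Hbegf was −2.54 to −1.83 and called in each. In the fits without replicate 1 or 2 of day 1 the 3-digit arm is 1 library, which is assumed to vary like the other groups. The same holds for every contrast by format that is left with 1 library in an arm. Without replicate 1 of day 1, Areg was −1.63 (adjusted p = 0.132), without replicate 3 −1.69 (adjusted p = 0.0623) and without replicate 4 −1.85 (adjusted p = 0.0509), and Btc without replicate 4 was 1.25 (adjusted p = 0.0561). With total counts without TMM, Areg was −1.59 and not called (adjusted p = 0.0512), and Erbb2 was 0.59 and called (adjusted p = 0.0471).

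The same formats also differed in lists of other genes at day 1. Of the 14 immediate early genes, 12 were lower and 1 higher in the 3-digit libraries, beside 16.4% and 18.6% of all genes, and of 10 proximal tubule genes, 5 were lower and none higher. Of 8 smooth muscle genes, 7 were higher and none lower, and of 8 urothelium genes, 5 were higher and none lower, beside the same 18.6% and 16.4%. The 8 tubular injury genes summed to 32724 and 38311 CPM in 3-digit and to 9476 to 17591 CPM in 1-digit libraries. As a list they differed little, with 2 of the 8 called higher and none lower in 3-digit libraries, beside 18.6% and 16.4%. The fitted difference was downward in 3 of the 8, and the median log2 difference was 0.21. The part of these lists, and of the number format itself, in the differences between the family members was not tested.

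At day 3 the 3 libraries with 3-digit numbers differed from the 2 with 1-digit numbers for 1 of the 10 genes, beside 18.5% of all genes. Egf was higher in them (2.17 ± 0.68 SE, adjusted p = 0.0431), and the call rested on replicate 2, without which the difference was 0.72 (adjusted p = 0.157). It was also lost in 9 of the other 13 leave-one-out fits, where the difference stayed at 1.99 to 2.34 with adjusted p of at most 0.184. The difference between day 3 and day 1 in this contrast was tested as an interaction and called for 3 of the 10 genes, beside 17.6% of all genes. It was 4.79 ± 0.97 SE for Egf (adjusted p = 0.00571; 3.34 to 5.51 over the leave-one-out fits, lowest without replicate 2 of day 3), 1.92 ± 0.39 SE for Hbegf (adjusted p = 0.00596) and −1.47 ± 0.41 SE for Tgfa (adjusted p = 0.0266), and that of Tgfa was lost without replicate 1 or 2 of day 1 or replicate 4 or 5 of day 3.

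**Figure D5:**
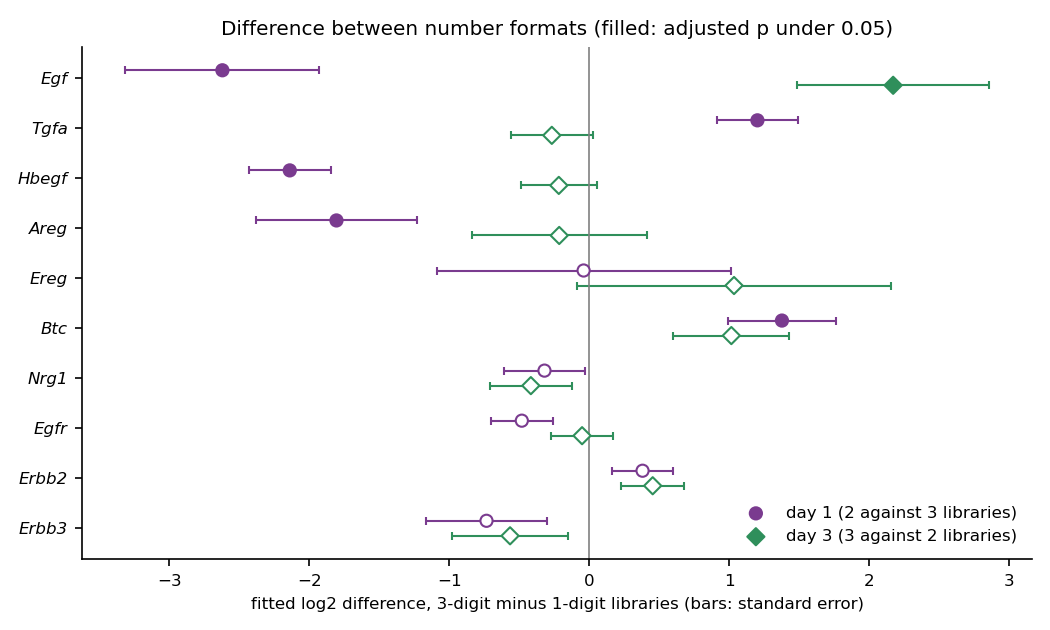
Fitted log2 difference of 3-digit minus 1-digit libraries (x axis) for each gene at day 1 (circles, 2 against 3 libraries) and day 3 (diamonds, 3 against 2 libraries), with bars of 1 standard error and filled symbols for adjusted p under 0.05. Egf lies at −2.62 at day 1 and at 2.17 at day 3.

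Taken by format, the day contrasts called more of the family among 1-digit libraries, as they did for all genes. Against day 0, 8 of the 10 were called in the 1-digit libraries of day 1, beside 58.5% of all genes, and 6 in the 3-digit libraries, beside 41.6%. The 8 included Ereg (2.57 ± 1.04 SE, adjusted p = 0.0481), a call lost in 10 of the 14 leave-one-out fits and with total counts without TMM (adjusted p = 0.0583). At day 3 the counts were 7, beside 53.7%, and 4, beside 32.4%. From day 1 to day 3, 5 of the 10 were called among 1-digit libraries, beside 32%, and 2 among 3-digit libraries, beside 13.9%. In the 1-digit libraries of day 3, Erbb2 was lower (−0.70 ± 0.22 SE, adjusted p = 0.0148) and Erbb3 higher (1.16 ± 0.38 SE, adjusted p = 0.0209) than at day 0, and neither was called in the pooled fit. With number format as a term both pooled changes at day 3 were called (−0.68 and 1.21, adjusted p = 0.00975 and 0.0127), as was that of Erbb3 with total counts without TMM (0.96, adjusted p = 0.031). Without replicate 5 of day 3 the change of Erbb2 in 1-digit libraries was −0.58 (adjusted p = 0.124), and without replicate 4 of day 3 that of Erbb3 was 0.80 (adjusted p = 0.193).

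Of the 5 other ERBB ligands and receptor genes, only Erbb4 and Nrg4 passed the filter. Erbb4, the receptor of Nrg1, Btc, Hbegf and Ereg, fell 4.32-fold at day 1 (log2 change −2.11 ± 0.51 SE, adjusted p = 0.00492), from 4.35 to 7.18 CPM at day 0 to 0.402 to 0.686 CPM in 1-digit and 1.56 and 3.04 CPM in 3-digit libraries. At day 3 it was 3.16 to 7.57 CPM, and its rise from day 1 was called (2.11 ± 0.49 SE, adjusted p = 0.0128). Nrg4, a ligand of ERBB4, was 2.02 to 2.82 CPM at day 0 and 0.629 to 2.64 CPM at day 1, and its log2 change of −0.78 ± 0.37 SE was not called (adjusted p = 0.1). By format, Nrg4 was lower than at day 0 in 1-digit libraries of day 1 (−1.37 ± 0.35 SE, adjusted p = 0.0043) and not called in 3-digit libraries (−0.22 ± 0.36 SE, adjusted p = 0.648). Both genes were higher in 3-digit than in 1-digit libraries of day 1, Nrg4 by 1.15 ± 0.39 SE (adjusted p = 0.038) and Erbb4 by 2.11 ± 0.38 SE (adjusted p = 0.0015). Nrg2 had at most 8 reads in any library and Nrg3 had 0 in all 14.

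Among 5 genes of ligand release, 2 were called higher and none lower at day 1 (median log2 change −0.17), beside 23.3% and 18.7% of all genes, and 2 higher and 1 lower at day 3 (median 0.32), beside 19.5% and 13.8%. By format at day 1, 2 were higher and 2 lower in 1-digit libraries, beside 28.9% and 29.6%, and 2 higher and none lower in 3-digit libraries, beside 22.6% and 19%. At day 3 the counts were 2 and 1 in 1-digit libraries, beside 28.6% and 25.1%, and 2 and 0 in 3-digit libraries, beside 19.1% and 13.3%. Rhbdf2 and Rhbdf1 encode inactive rhomboids that carry the sheddase ADAM17 to the cell surface. Rhbdf2 rose by a log2 change of 2.23 ± 0.34 SE at day 1 (adjusted p = 0.00027) and 1.38 ± 0.33 SE at day 3 (adjusted p = 0.00625), and Rhbdf1 by 1.36 ± 0.23 SE and 1.10 ± 0.22 SE (adjusted p = 0.000508 and 0.00256). Timp3, which encodes an inhibitor of ADAM17, was lower at day 3 (−0.68 ± 0.22 SE, adjusted p = 0.0252). The change of Adam17 itself was −0.35 ± 0.14 SE at day 1 and not called (adjusted p = 0.0627).

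Of 8 genes of receptor feedback and turnover, 2 were called higher and 2 lower at day 1 (median −0.15), beside 23.3% and 18.7% of all genes, and 1 higher and none lower at day 3 (median 0.18), beside 19.5% and 13.8%. The 1-digit libraries of day 1 also gave 2 higher and 2 lower against day 0, beside 28.9% and 29.6% of all genes. The 3-digit libraries gave 4 lower and none higher, beside 19% and 22.6%. At day 3 the 1-digit libraries gave 3 higher and 1 lower, beside 28.6% and 25.1%, and the 3-digit libraries 1 higher and 1 lower, beside 19.1% and 13.3%. In 3-digit against 1-digit libraries of day 1, 5 of the 8 were lower and 1 higher, beside 16.4% and 18.6%. Cblb, an E3 ubiquitin ligase, rose by 1.20 ± 0.29 SE at day 1 (adjusted p = 0.00511), Socs5, a suppressor of cytokine signaling that can target EGFR, fell (−1.02 ± 0.33 SE, adjusted p = 0.0247), and Cbl, the ligase that marks activated EGFR for degradation, was higher at day 3 (0.66 ± 0.23 SE, adjusted p = 0.0422). The change of Errfi1, which encodes an inhibitor of the EGFR kinase, was 0.21 ± 0.35 SE at day 1 (adjusted p = 0.642).

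Of 13 genes for adaptors and the Ras-MAPK relay, 6 were called higher and none lower at day 1 (median 0.32), beside 23.3% and 18.7% of all genes, and 3 higher and 1 lower at day 3 (median 0.11), beside 19.5% and 13.8%. By format at day 1, 6 were higher and none lower in 1-digit and 6 higher and 1 lower in 3-digit libraries, and at day 3, 5 higher and 1 lower in 1-digit and 2 higher and 1 lower in 3-digit libraries, with the shares of all genes given above. Nras, one of the Ras genes, rose by 1.69 ± 0.19 SE at day 1 and 1.44 ± 0.19 SE at day 3 (adjusted p = 3.11e-05 and 0.000139). The adaptor gene Shc1 rose by 1.14 ± 0.21 SE and 0.64 ± 0.20 SE (adjusted p = 0.00087 and 0.0257), and the adaptor gene Grb2 by 0.82 ± 0.23 SE at day 1 (adjusted p = 0.0114).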

How the data were processed

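RNA of whole kidney was sequenced after an Illumina TruSeq preparation. Per the labels' processing notes, reads were handled with Trimmomatic and STAR on mm10, with versions not given in the sources used here, nor the annotation used for counting. The authors deposited 14 STAR gene count tables with unnormalized counts for 3 strand settings, of which the strand that held 98.5% to 98.7% of the counted reads was used. The 4 rows that name no gene were left out of the library sizes. Together these 4 rows held 29.0% to 38.3% of all reads in the gene and non-gene rows of a library. The columns of all 14 tables were mapped to samples.

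Counts were filtered with filterByExpr by day, leaving 14300 genes, scaled by TMM and tested with glmQLFTest in edgeR 4.0.16 (R 4.3.3, limma 3.58.1), with 1 term per day, or 1 term per day and number format for the contrasts by format. P-values were adjusted by Benjamini and Hochberg over all genes tested. The SE is the log2 change over the root of F. For likeness and plots, log2 CPM used a prior count of 2. The scripts were tested on simulated data. DESeq2 1.42.0, other scalings and filters, the unstranded counts, a replicate block, number format as a term and leaving out each library were the alternatives. Coordinates and exon lengths are from GENCODE M21 (GRCm38), and promoters from RefSeq (GRCm38.p6). Genes named were the 10 members, the other ERBB genes, up to 3 genes of each other pathway list with the largest change at day 1 or 3 among those called, and for members the results turn on the 3 genes nearest in log2 CPM. Adam17 and Errfi1 were named after their values were seen. The members and lists were chosen with earlier results of these data known. No 2 libraries of a day agreed within counting noise, with a chi-square of at least 5.69 per degree of freedom over 26 pairs.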

Additional observations from a re-analysis of the deposited data

Results flagged for a closer look

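In 5 of the 30 sets of values tested (10 genes by 3 days), 1 library stood apart from the others of its day by Dixon's criterion. About 1.5 sets would be flagged if values were normally distributed. The criterion was applied to CPM, so 5 against 1.5 does not test for an excess. Egf in replicate 2 of day 3 was 282 CPM, against 24.0 to 54.5 CPM in the other 4 libraries. Ereg in the same library was 2.93 CPM, against 0.538 to 1.03 CPM. Btc in replicate 3 of day 3 was 10.8 CPM, against 2.86 to 4.89 CPM. Replicate 4 of day 0 had 0.907 CPM of Ereg and 0.0605 CPM of Areg, where the other 3 libraries had 0, and the Areg value is 1 read. With 0 in all the others, any read is flagged.

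The contrast of 3-digit with 1-digit libraries differed between day 3 and day 1 for 3 genes by the interaction term in edgeR. The difference was 4.79 for Egf, 1.92 for Hbegf and −1.47 for Tgfa on the log2 scale, with adjusted p of 0.00571, 0.00596 and 0.0266. That of Egf was 3.34 to 5.51 over the leave-one-out fits. The contrast at day 3 against that at day 1 uses 2 or 3 libraries in each arm.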

How the results depend on the processing

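The fall of Egf and Erbb2 and the rise of Hbegf, Areg and Nrg1 at day 1, and the fall of Egf and Btc and the rise of Areg at day 3, kept their direction and their call under all alternatives and leave-one-out fits that gave a value (Areg and Ereg gave none at 10 or more counts in every library, nor Areg at day 3 when only the 2 days compared were fitted), as did the pooled fall of Hbegf and Nrg1 from day 1 to day 3. The contrast of Hbegf within 3-digit libraries in the fit of all libraries was not called (−0.82, adjusted p = 0.0565). The number of members called at day 3 against day 0 was 7 with number format as a term and 7 with only 1-digit libraries, against 4, where 48.2%, 56.3% and 33.3% of all genes were called, and from day 1 to day 3 it was 6 with only 1-digit libraries, against 3, beside 36% and 15.9%. With one library left out, the number called was 2 to 5 from day 1 to day 3 (beside 8.9% to 23.5% of all genes), 1 to 6 for 3-digit against 1-digit libraries at day 1 (14% to 39.4%) and 0 to 3 at day 3 (0.638% to 33.5%), and from day 1 to day 3 it was 3 to 6 within 1-digit (19.6% to 36%) and 1 to 3 within 3-digit libraries (1.64% to 17.4%). The cause of these shifts was not tested.

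Changes of sign arose in members that had not been called. With only 3-digit libraries the change from day 1 to day 3 was 0.72 for Egf, −0.70 for Tgfa, 0.26 for Ereg and 0.0039 for Egfr, and with only 1-digit libraries Tgfa was −0.22 at day 1 against day 0. From day 1 to day 3, Tgfa was −0.0037 with unstranded counts, −0.015 with RLE size factors, −0.014 without the filter and −0.017 with DESeq2. With total counts without TMM, Ereg was 0.073 from day 1 to day 3 and 0.14 for 3-digit against 1-digit libraries at day 1. With one library left out, the change from day 1 to day 3 was −0.19 to 0.22 for Tgfa, −0.64 to 0.25 for Ereg and −0.61 to 0.099 for Btc, that of Egfr at day 3 against day 0 was −0.090 to 0.14, and the format difference of Ereg at day 1 was −0.60 to 0.70. At day 3 the format difference was −0.54 to 0.17 for Hbegf, −0.97 to 1.32 for Areg, −0.80 to 0.080 for Nrg1 and −0.37 to 0.20 for Egfr.

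Replicate numbers gave no clear pairing of the libraries across days. Of 13 same-numbered pairs, 4 correlated above 0.1 (range −0.17 to 0.26), where other pairs ranged from −0.50 to 0.53. Among the 14 libraries, 4 correlated best with their own number. Differences between formats within a day were not removed first, so this check cannot exclude a pairing. With the replicate block, Egfr at day 3 against day 0 was −0.014, Ereg from day 1 to day 3 was 0.074, and 5162 genes were called at day 1 and 4103 at day 3, against 6020 and 4757.

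Total counts without TMM moved the median change of all genes at day 3 against day 0 from 0.054 to 0.19, and the split of calls from 2783 higher and 1974 lower to 3625 and 1286. From day 1 to day 3 the split moved from 1219 and 1057 to 1721 and 487, and for the formats at day 1 from 2656 and 2345 to 3909 and 1439. It moved from 1302 and 1208 to 979 and 1819 for the interaction, from 2738 and 1897 to 3820 and 1148 for 3-digit libraries of day 3 against day 0, and from day 1 to day 3 from 2357 and 2214 to 3688 and 1296 within 1-digit and from 1072 and 916 to 1193 and 631 within 3-digit libraries. From day 1 to day 3, 831 genes were called when only these 2 days were fitted and 5194 with only 1-digit libraries, against 2276, and at day 3 against day 0 it was 8119 with only 1-digit libraries, against 4757. Leaving out one library, the calls over all genes were 1269 to 3350 from day 1 to day 3, 1997 to 5602 for the formats at day 1 (lowest without replicate 2 of day 1) and 91 to 4771 for the formats at day 3 (lowest without replicate 5 of day 3), against 2276, 5001 and 2645. Depth limits Areg and Ereg most, with at most 38 and 52 reads in any library.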
